A study of Mus musculus with 6 samples.

Results

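Keratins are the intermediate filament proteins of epithelial cells. They were followed here in inguinal white fat, the subcutaneous depot of the groin that lies under the skin and, in females, around the mammary gland. The set was every gene whose annotated symbol is Krt followed by a digit, with the keratin-associated proteins left out. It held 48 of the 18193 genes measured, with 1 probe set per gene, the one with the highest average signal. By tissue, 6 were keratins of simple epithelia, 20 of stratified epithelia and 21 of hair and its follicle, and Krt222, a keratin-like gene, was left unclassed.

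Both groups were male mice, put at 6 weeks of age on a high-fat diet (60% of calories) that lasted 15 weeks, and all spent their last 4 h in the cold, at 4 °C. The groups were wild type (WT, n = 3) and Naa10-KO (n = 3), a knockout of the catalytic part of an enzyme that acetylates the N-terminus of proteins. Strain, allele and tissue range of the knockout are not given in the sources used here. Naa10 itself was not analysed here, so the genotype labels were not checked against the targeted transcript.

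Keratins work as obligate pairs of an acidic type I and a basic type II chain. Single-layered epithelia such as ducts build filaments of Krt8 with Krt18, joined by Krt7 and Krt19. Basal cells of the epidermis use Krt5 with Krt14, which the maturing layers replace by Krt1 with Krt10. In the mammary gland the luminal cells carry the simple keratins and the basal, myoepithelial cells carry Krt5, Krt14 and Krt17. Adipocytes, fibroblasts and muscle use other intermediate filaments, vimentin and desmin among them, so a keratin signal in fat is commonly read as a sign of epithelium. In RefSeq's GRCm38.p6, 24 of the 25 type I members lie on chromosome 11, and the 23 type II members lie on chromosome 15. The remaining type I gene, Krt18, is on chromosome 15 beside its partner Krt8, with 0 protein-coding genes between them.

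Promoter sequence is shown for 4 members that carry the contrasts described below. Krt10 and Krt79 had high signal on every array, Krt7 had groups that did not overlap, and Krt14 marks the basal layer of the epidermis. Each line holds the 250 bases before the RefSeq start site, 5′ to 3′ on the gene's strand in GRCm38.p6. The positions are chr11:99389365-99389614 (minus strand) for Krt10, chr15:101940325-101940574 (minus) for Krt79, chr15:101412153-101412402 (plus) for Krt7 and chr11:100206031-100206280 (minus) for Krt14. Capitals mark matches on either strand to the letters TATAAA of a TATA box, to GGGCGG of a GC box, to TGANTCA of an AP-1 site or to GCCNNNGGC of an AP-2 site. In Krt7 the GC-box and AP-2 letters overlap in part.
Krt10: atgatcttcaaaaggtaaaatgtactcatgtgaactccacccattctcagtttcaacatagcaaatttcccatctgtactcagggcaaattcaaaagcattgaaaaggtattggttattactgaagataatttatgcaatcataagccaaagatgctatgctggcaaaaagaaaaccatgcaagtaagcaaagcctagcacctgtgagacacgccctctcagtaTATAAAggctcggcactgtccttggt
Krt79: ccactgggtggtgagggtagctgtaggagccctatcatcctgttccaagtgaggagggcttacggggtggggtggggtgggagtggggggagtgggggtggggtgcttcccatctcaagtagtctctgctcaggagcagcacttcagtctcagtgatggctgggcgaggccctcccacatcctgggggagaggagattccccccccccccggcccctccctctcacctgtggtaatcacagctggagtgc
Krt7: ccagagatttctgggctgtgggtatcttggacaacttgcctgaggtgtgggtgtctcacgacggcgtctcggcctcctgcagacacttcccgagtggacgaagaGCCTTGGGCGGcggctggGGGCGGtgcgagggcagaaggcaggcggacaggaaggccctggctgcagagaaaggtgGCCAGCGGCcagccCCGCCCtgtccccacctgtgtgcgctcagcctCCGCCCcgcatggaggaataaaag
Krt14: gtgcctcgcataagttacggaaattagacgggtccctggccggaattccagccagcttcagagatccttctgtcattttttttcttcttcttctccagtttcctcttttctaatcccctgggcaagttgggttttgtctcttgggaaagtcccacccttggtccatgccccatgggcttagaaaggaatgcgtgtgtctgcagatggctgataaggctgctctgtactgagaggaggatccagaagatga

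RefSeq windows of 300 bases, the 250 above and 50 after the start, were found for 32 of the 48 members, with 33 windows in all. TATAAA was in 18 of the 33 windows (54.5%), against 13.6% of all 32851 windows. It was in 12 of 15 windows of hair keratins, 2 of 5 of simple and 4 of 13 of stratified keratins. On the gene's own strand, between 40 and 20 bases before the start, it was in 12 of the 33 keratin windows (36.4%) and in 1.99% of all windows. In Krt10 it began 26 bases before the start. GGGCGG went the other way, in 2 of 33 keratin windows (Krt7 and Krt75) and 35.7% of all windows. TGANTCA was in 2 (6.06%) against 7.81% and GCCNNNGGC in 4 (12.1%) against 16.6%. Among the members in the display, only Krt10 held TATAAA and only Krt7 held the GC and AP-2 letters, while Krt79 and Krt14 held none of the 4. These matches describe letters in a window and were not tested.

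Most keratins gave little signal in this fat. The median of all values on the 6 arrays, 5.86 on the log2 scale, served as a mark for low signal, since detection calls were not used. On all 6 arrays 30 of the 48 members (62.5%) lay below that mark, against 27.1% of all genes. Only 5 members, or 10.4%, lay above it on all 6 arrays, against 57.1% of all genes, and 13 were mixed. Probe sets differ in their affinity, so signals of different genes were compared only with this common mark.

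**Figure D1:**
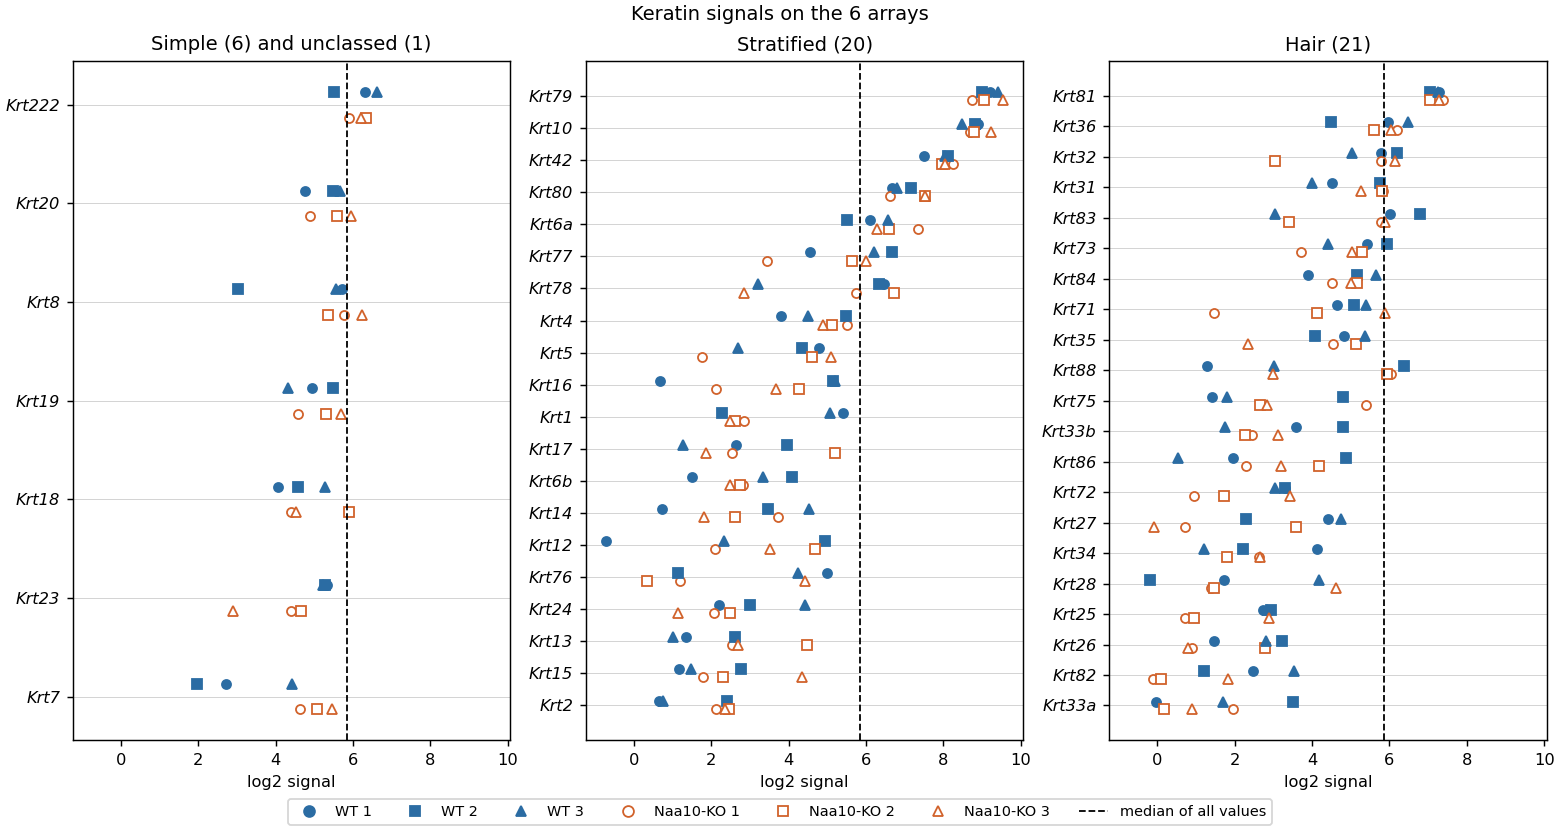
The log2 signal of each of the 48 keratins (rows, ordered by mean within each panel) on the 3 WT arrays (filled symbols) and the 3 Naa10-KO arrays (open symbols), with the median of all values as a dashed line at 5.86. Krt79, Krt10, Krt42, Krt80 and Krt81 lie right of the line on all 6 arrays, and most other members lie left of it with widely scattered symbols.

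The 5 members above the mark throughout were 4 stratified keratins and 1 hair keratin, and none of them had groups that stood apart. Krt79, a type II keratin known from the openings of hair follicles and sebaceous ducts, was at 9.21, 9.01 and 9.40 on WT replicates 1 to 3 and at 8.73, 9.05 and 9.55 on the Naa10-KO arrays. The highest and the lowest array were both Naa10-KO. Its difference, Naa10-KO minus WT, was -0.10 (SE 0.26, limma adjusted p = 0.917).

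Krt10, the type I keratin of the maturing epidermis, had 8.90, 8.83 and 8.47 on the WT arrays and 8.69, 8.79 and 9.22 on the Naa10-KO arrays (log2 difference 0.17, SE 0.22, limma adjusted p = 0.823). Naa10-KO replicate 3 was highest and WT replicate 3 lowest, and the groups overlapped. Krt42, a keratin of the nail unit, was at 7.50, 8.11 and 8.05 in WT and at 8.24, 7.97 and 8.05 in Naa10-KO. WT replicate 1 was the low array, and the other 5 lay within a narrow band. The probe set behind these values has the suffix x_at, which marks possible binding to related transcripts, and the second Krt42 probe set ranged from 0.93 to 5.86 over the arrays.

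Krt80, a type II keratin found in many epithelia, had 6.67, 7.17 and 6.79 on the WT arrays and 6.62, 7.52 and 7.53 on the Naa10-KO arrays (log2 difference 0.34, SE 0.31). Naa10-KO replicates 2 and 3 were the highest and replicate 1 the lowest. Krt81, a structural keratin of the hair shaft, was the steadiest, at 7.29, 7.04 and 7.25 in WT and at 7.39, 7.05 and 7.27 in Naa10-KO (log2 difference 0.05, SE 0.16).

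Another 3 members reached the mark in at least 1 genotype mean. Krt6a, which epidermis makes after injury, was at 6.11, 5.52 and 6.57 in the wild type and 7.34, 6.60 and 6.29 in the knockout (log2 difference 0.68, SE 0.39, limma adjusted p = 0.634). Naa10-KO replicate 1 was highest, but WT replicate 3 lay above Naa10-KO replicate 3. The 2 other probe sets of Krt6a were lower in Naa10-KO instead, by -0.77 and -1.25. Krt222 had means of 6.15 ± 0.57 in WT and 6.15 ± 0.21 in Naa10-KO. Krt36, a hair keratin, had means of 5.65 ± 1.04 and 5.94 ± 0.31, just around the mark.

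In limma 0 of the 48 keratins passed an adjusted p of 0.05, whether upward or downward. Among all genes 0.115% passed (0.0879% higher and 0.0275% lower), so a count of 0 among 48 is near the background. An unadjusted p under 0.05 was reached by 2 keratins, Krt7 and Krt23, against 9.20% of all genes. The lowest adjusted p of any keratin was 0.503. Means were higher in Naa10-KO for 23 and lower for 25, and the median log2 difference was -0.05, against 0.01 over all genes.

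For 1 keratin, or 2.08%, every Naa10-KO value exceeded every WT value, against 10.0% of all genes. For 1 other, Krt23, every Naa10-KO value was the smaller, against 8.14% of all genes. The remaining 46 overlapped.

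**Figure D2:**
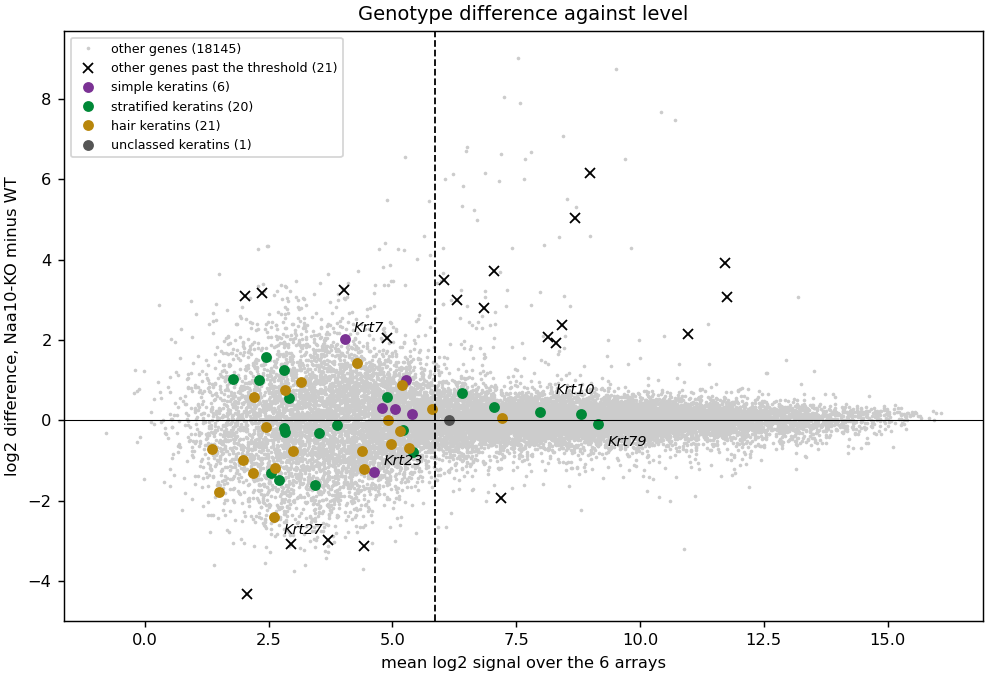
Log2 difference between genotypes (vertical, Naa10-KO minus WT) against the mean log2 signal over the 6 arrays (horizontal) for all genes in grey, with the 21 genes past the threshold as crosses and the keratins coloured by class. Keratins lie within the grey cloud, between -2.41 for Krt27 and 2.02 for Krt7, and their wider differences are left of the dashed mark at 5.86.

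Simple keratins had a median log2 difference of 0.29 over 6 members, with 5 means higher and 1 lower in Naa10-KO. That median was 0.036 with low values raised to the mark, over the 3 members left to test. It was 0.15 without WT replicate 1, 0.17 without Naa10-KO replicate 2, 0.49 without WT replicate 3 and 0.58 without Naa10-KO replicate 1. Krt7, a type II keratin of ducts and glands, was at 2.71, 1.97 and 4.42 in WT and at 4.64, 5.06 and 5.46 in Naa10-KO. Every Naa10-KO array was above every WT array, the nearest pair being WT replicate 3 and Naa10-KO replicate 1. The log2 difference was 2.02 (SE 0.67, 4.05-fold, limma unadjusted p = 0.0268, adjusted p = 0.503), which did not pass. All 6 arrays of Krt7 lay below the mark, so this fold stands on signals near the low end.

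Skeletal muscle markers separated the same arrays: 25 of 28 (89.3%) had every Naa10-KO value above every WT value, against 10.0% of all genes. In limma 2 of 28 passed as higher, against 16 (0.0879%) of all genes. With the replicate number as a block 0 passed, in the list and among all genes. Removing WT replicate 3 gave 12 higher in the list and 29 among all genes. Removing any of the remaining 5 arrays gave 0 in the list and among all genes. The means of 28 muscle genes were 4.69 to 7.50 on WT and 10.24 to 10.46 on Naa10-KO arrays. WT replicate 3 was the highest of WT for that list as for Krt7. On WT replicates 1 and 2 the order was opposite, at 4.69 and 5.22 for the list and 2.71 and 1.97 for Krt7. In Naa10-KO both were highest on replicate 3, and their order on replicates 1 and 2 was again opposite. Summed on the linear scale the 28 muscle genes came to 8755 to 24291 in WT and 134810 to 174285 in Naa10-KO. The part of muscle in the Krt7 values was not tested. In RNA of whole tissue, a change in the number of cells of a type and a change in RNA per cell cannot be told apart.

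Krt23, a type I keratin of simple and glandular epithelia, was the other member with separate groups. Its signals were 5.33, 5.27 and 5.23 in WT and 4.39, 4.67 and 2.90 in Naa10-KO. WT arrays were nearly equal, whereas Naa10-KO replicate 3 stood well below its group (log2 difference -1.29, SE 0.49, limma unadjusted p = 0.0433, adjusted p = 0.540). It too lay below the mark on all 6 arrays.

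The other simple keratins lay below the mark on at least 5 of 6 arrays. Krt8 was at 5.73, 3.02 and 5.56 in WT and at 5.76, 5.35 and 6.23 in Naa10-KO, a spread set mainly by the low WT replicate 2 (log2 difference 1.01, SE 0.80, limma adjusted p = 0.709). Its 2 other probe sets, both ending in x_at, went the other way, at -0.12 and -0.68. Krt18, the partner and chromosomal neighbour of Krt8, was at 4.07, 4.58 and 5.29 in WT and at 4.41, 5.90 and 4.53 in Naa10-KO. The array with the highest Krt18 was Naa10-KO replicate 2, while Krt8 was highest on Naa10-KO replicate 3, so the pair did not rise on the same array. Krt19, a type I keratin of ducts, was at 4.95, 5.48 and 4.33 in WT and at 4.59, 5.31 and 5.70 in Naa10-KO, with groups that overlapped. Krt20, known from the gut and bladder lining, had means of 5.31 ± 0.48 and 5.48 ± 0.54.

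Keratins of the mammary type overlap with these classes, the luminal ones with the simple and the basal ones with the stratified keratins. All mice were male, and whether this fat held mammary ducts was not tested. All 4 luminal members (Krt7, Krt8, Krt18 and Krt19) had higher means in Naa10-KO, with a median log2 difference of 0.65 and 0 past the threshold. Summed on the linear scale, their signals were 80.6 to 128 on the WT and 125 to 194 on the Naa10-KO arrays, ranges that overlapped. With low values raised to the mark the luminal median was 0.070, over the 2 members left to test.

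The 4 basal members showed no common direction. Krt5 was at 4.78, 4.35 and 2.70 on WT arrays and 1.77, 4.61 and 5.10 on Naa10-KO arrays (log2 difference -0.12, SE 1.06). Its partner Krt14 was at 0.74, 3.46 and 4.52 on WT arrays and 3.72, 2.60 and 1.81 on Naa10-KO arrays (log2 difference -0.19, SE 1.09). Krt5 was lowest in WT on replicate 3, where Krt14 was highest in WT, and lowest in Naa10-KO on replicate 1, where Krt14 was highest in Naa10-KO. Both stayed below the mark on all 6 arrays, as did Krt15 and Krt17, whose differences were 1.01 and 0.57. The other probe sets of Krt14 differed by 0.61 and -1.13, and that of Krt17 by -0.29. A probe set shared by Krt17 and Krt14, which belongs to no member by the rule, ranged from 4.18 to 6.25 (log2 difference 0.91, SE 0.45). It lay above the mark on Naa10-KO replicates 1 and 2, at 5.96 and 6.25, and below it on the other arrays.

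Stratified keratins had a median log2 difference of 0.04 over 20 members, with 10 means higher and 10 lower and 0 with separate groups. Of the 20, 13 lay below the mark on all 6 arrays. Krt1, the epidermal partner of Krt10, was among them, at 5.41, 2.27 and 5.07 in WT and at 2.84, 2.61 and 2.47 in Naa10-KO. WT replicates 1 and 3 were high and WT replicate 2 lay below all Naa10-KO arrays. Krt10 thus lay above the mark on every array and its partner Krt1 on none.

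Members with the smallest p in this class did not pass the threshold either. Krt13, a keratin of the mouth and oesophagus, had means of 1.66 ± 0.84 and 3.23 ± 1.09 (limma adjusted p = 0.562), and its 2 other probe sets differed by -1.33 and 1.45. Krt2 of the upper epidermis was at 0.64, 2.42 and 0.75 in WT and at 2.12, 2.45 and 2.36 in Naa10-KO, so WT replicate 2 fell inside the Naa10-KO range. Krt24, by contrast, had means of 3.21 ± 1.12 in WT and 1.89 ± 0.69 in Naa10-KO. All 3 lay below the mark on all 6 arrays.

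Hair keratins had 13 of 21 means lower in Naa10-KO, with a median log2 difference of -0.58 and 0 members with separate groups. The median was -0.13 without Naa10-KO replicate 2, -0.29 without WT replicate 2 and -0.29 without Naa10-KO replicate 1, and -0.026 with low values raised to the mark, over 7 members. Krt27, a keratin of the inner root sheath, had the lowest difference of all 48 at -2.41 (SE 1.17, limma adjusted p = 0.595). It was at 4.42, 2.30 and 4.76 in WT and at 0.72, 3.59 and -0.08 in Naa10-KO, so WT replicate 2 fell inside the Naa10-KO range. Krt25, another inner root sheath keratin, was at 2.74, 2.93 and 2.83 in WT and at 0.72, 0.95 and 2.89 in Naa10-KO, with replicate 3 at the WT level. Krt82, of the hair cuticle, differed by -1.79 (SE 0.79). All 3 lay below the mark on all 6 arrays.

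The array with the highest signal varied from keratin to keratin. Averaged over the 20 stratified keratins, the WT arrays stood at 3.93, 4.86 and 4.47 and the Naa10-KO arrays at 4.10, 4.81 and 4.51, so the groups overlapped and replicate 2 was highest in both. Of the 20, the highest signal fell on a WT array for 2, 3 and 3 members in order of replicate, and on a Naa10-KO array for 3, 4 and 5. Hair keratins differed from this, with 9 of 21 highest on WT replicate 2 and 0 on Naa10-KO replicate 2. Summed over all 48 on the linear scale, keratin signals were 2487 to 2796 in WT and 2420 to 3055 in Naa10-KO.

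**Figure D3:**
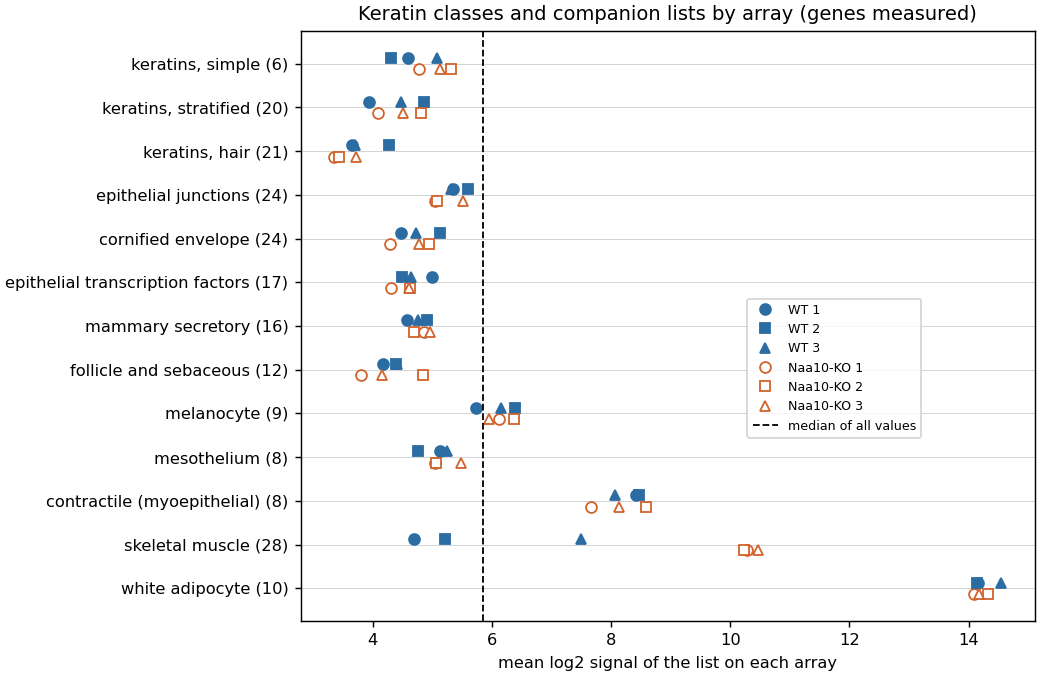
Mean log2 signal of each keratin class and companion list (rows, number of genes measured in brackets) on the 3 WT arrays (filled) and the 3 Naa10-KO arrays (open), with the median of all values dashed at 5.86. Keratin classes lie left of the line with mixed symbols, white adipocyte genes lie between 14.08 and 14.55, and the skeletal muscle list stands at 4.69 to 7.50 in WT and at 10.24 to 10.46 in Naa10-KO. The list of other intermediate filaments, which is not drawn, shares Des with the muscle list. Its list means were also apart, at 5.65 to 5.80 in WT and 5.89 to 6.04 in Naa10-KO. Its list medians overlapped, at 5.71 to 5.98 in WT and 5.13 to 5.87 in Naa10-KO, and 8 members had higher and 8 lower means.

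Spread among arrays of one genotype was wide for most keratins. The median SD within genotype was 1.07 for the 48 keratins and 0.35 for all genes. The 8 keratins with a genotype mean at or above the mark had a median SD of 0.37, and the 40 others 1.13. Among all genes split in the same way the medians were 0.23 and 1.16. Differences of 1 to 2 log2 units in the lower keratins are therefore of the order of the SD among single arrays of 1 genotype. With 1 array per mouse, variation between mice and measurement noise cannot be told apart.

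**Figure D4:**
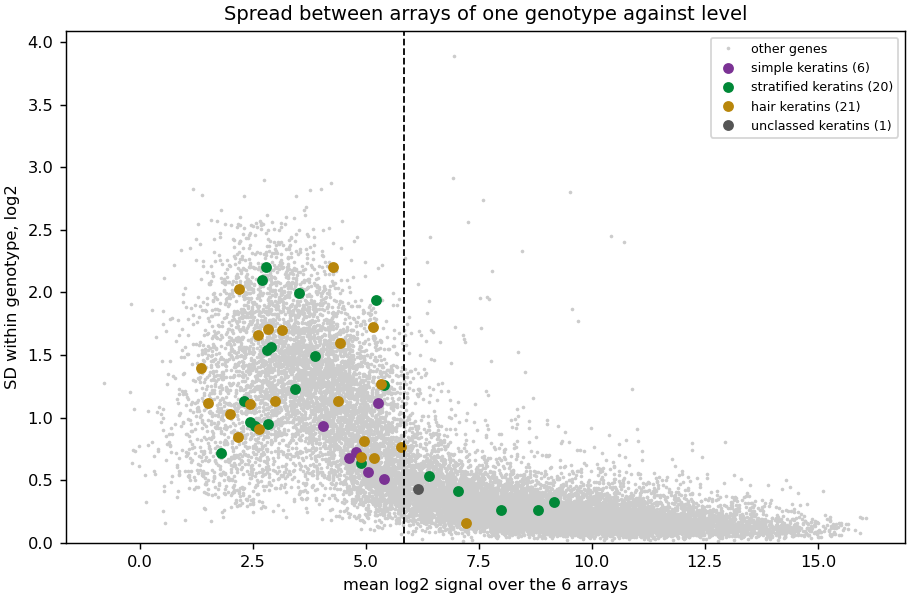
Standard deviation within genotype on the log2 scale (vertical, pooled over WT and Naa10-KO) against mean log2 signal (horizontal), with all genes in grey and keratins coloured by class. Keratins left of the dashed mark at 5.86 scatter mostly between 0.51 and 2.20 among the grey genes, and those to the right lie low.

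Probe sets of 1 keratin often disagreed. Of 9 members with several probe sets, 6 had probe sets that differed in the sign of the genotype difference, and 3 had 1 sign. None of the 13 probe sets left aside had a mean at or above the mark. For Krt8 and Krt6a, the 2 genes with a higher mean in Naa10-KO and 2 probe sets pointing down, the sign in the set depends on the choice of the brightest.

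Genes of epithelium and of cells that lie near it were read from the same fit, over 8 lists with 118 measured genes. They included 9 melanocyte genes and 8 contractile genes, so the pooled figures are not of epithelium alone. In limma 0 of the 118 passed in either direction, 11 (9.32%) had an unadjusted p under 0.05, against 9.20% of all genes, and the median difference was -0.13. Groups did not overlap for 7 higher (5.93%) and 11 lower (9.32%), against 10.0% and 8.14% of all genes. The contractile list held 3 of those 11 lower genes, and 3 of the 11 with an unadjusted p under 0.05. Of the 118, 57 (48.3%) lay below the mark on all 6 arrays and 21 (17.8%) above it on all 6, against 27.1% and 57.1% of all genes.

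Junction genes, which join epithelial cells to each other and to their base, had a median difference of -0.33 over 24 members. Epcam, an adhesion molecule of most epithelia, was at 6.58, 6.32 and 7.03 on WT arrays and 6.64, 5.48 and 7.16 on Naa10-KO arrays, above the mark on 5 of 6 arrays. The plakoglobin gene Jup had means of 8.05 ± 0.53 and 8.12 ± 0.36. Itga6, an integrin that vessels also carry, was at 11.58, 11.54 and 11.56 in WT and at 10.69, 11.06 and 11.17 in Naa10-KO, lower on all 3 arrays but not past the threshold (log2 difference -0.58, SE 0.17, limma adjusted p = 0.484).

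Cornified envelope genes, which build the outer layer of the skin, included some with signal on every array. Sbsn (suprabasin), Dmkn (dermokine) and Krtdap, secreted proteins known from the upper epidermis, lay above the mark on all 6 arrays. Which cells of this fat gave their signal was not tested. Sbsn was at 10.99, 11.13 and 10.94 in WT and at 11.05, 11.36 and 11.12 in Naa10-KO. Dmkn had means of 10.44 ± 0.34 and 10.64 ± 0.15. Krtdap had 8.68, 9.27 and 9.01 on the WT arrays and 9.74, 9.79 and 9.15 on the Naa10-KO arrays (log2 difference 0.57, SE 0.26, limma adjusted p = 0.570). In RefSeq these 3 genes are neighbours on chromosome 7, with 0 protein-coding genes between one and the next. None of them passed, and the other 21 genes of the list held 13 below the mark on all 6 arrays.

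Among epithelial transcription factors, Trp63, the regulator of the basal layer, was above the mark on all 6 arrays, with means of 6.53 ± 0.74 and 6.42 ± 0.29. Grhl1 had Naa10-KO arrays at 7.95, 7.77 and 7.76 and WT arrays at 7.47, 7.33 and 7.14, and Klf5 had 6.02, 5.98 and 6.11 against 5.39, 5.07 and 5.53. Both had all Naa10-KO arrays higher, with limma adjusted p-values of 0.489 for Grhl1 and 0.405 for Klf5. They were 11.8% of the list, against 10.0% of all genes. The list median was -0.17, with 11 of 17 below the mark throughout. Klf5 is also expressed by adipocytes and muscle.

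Mammary secretory genes had a median difference of -0.05 over 16 members, of which 9 lay below the mark on all 6 arrays. The casein gene Csn1s1 was at 1.13, 1.23 and 0.85 in WT and at 1.78, 3.21 and 4.29 in Naa10-KO, far below the mark (limma adjusted p = 0.501). The whey gene Wap had means of 4.46 ± 1.49 and 6.04 ± 0.52. Esr1, Aldh1a3 and Kit, the 3 list members above the mark throughout, are also known from fibroblasts, adipocytes or mast cells, and differed by 0.16, -0.10 and -0.00.

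Genes of pigment cells, follicle and mesothelium, the other cell types that could come with skin or the lining of the body cavity, showed 0 calls as well. Of 8 mesothelial genes, 3 lay below the mark on all 6 arrays, namely Msln, Upk3b and Wt1, which were picked after their values were seen. Cldn15 and Gpm6a lay above it on all 6, with differences of -0.49 and 0.53. Cldn15 and Muc16 (25.0% of the list, against 8.14% of all genes) had every Naa10-KO value below every WT value. The reverse held for 0 members, against 10.0% of all genes, and the list median was 0.24. Of 9 melanocyte genes, 5 had higher means in Naa10-KO and 4 lower, with a median difference of 0.14. Groups did not overlap for Mlana and Mitf, which were higher by 0.76 and 0.44 (22.2% of the list, against 10.0% of all genes). Nor did they for Slc45a2, at -1.51 (11.1%, against 8.14% of all genes). The pigment enzyme gene Dct was at 6.79, 7.17 and 6.96 in WT and at 6.35, 6.38 and 6.81 in Naa10-KO. Follicle and sebaceous genes had 0 of 12 members above the mark on all arrays.

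As a check of the tissue, 10 measured genes of white adipocytes all lay above the mark on all 6 arrays, with Adipoq, the adiponectin gene, between 15.46 and 15.81. Vim, the intermediate filament gene of adipocytes and stroma, had means of 14.50 ± 0.03 and 14.36 ± 0.27. Des, that of muscle, had means of 7.45 ± 0.64 and 8.84 ± 0.12 (log2 difference 1.40, SE 0.35, limma adjusted p = 0.414), and is itself on the muscle list. The name of skin epithelium was thus borne out only in part. Krt5, Krt14 and Krt1, which define the epidermis, were below the mark on every array by the probe sets kept. They were named after their values were seen. The probe set shared by Krt17 and Krt14 lay above the mark on Naa10-KO replicates 1 and 2. Krt10, Krt79, Trp63, Sbsn, Dmkn and Krtdap were above the mark on every array, though which cells gave their signal was not tested. Most members of their lists lay low. Below the mark on all 6 arrays were 13 of 20 stratified keratins, 13 of 24 cornified envelope genes and 11 of 17 epithelial transcription factors. Above it on all 6 were 4, 4 and 2.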

How the data were processed

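RNA of inguinal fat from 3 WT and 3 Naa10-KO mice was measured on Affymetrix mouse arrays, 1 per mouse. The values are the log2 signals of 45101 probe sets as deposited by the authors, and were used with no further normalization or filter. Their linear mean, after trimming 2% at each end, was 500.0 on every array, which shows a global scaling. The software behind the signals and any detection calls are not given in the sources used here.

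Genes were assigned from GEO's platform annotation, dated 2016. Apart from 64 control probe sets, 34945 carried a single gene, 932 several and 9160 none. All 48 keratins matched a RefSeq gene of GRCm38.p6 by Entrez identifier, with 0 symbols changed. For each gene the brightest probe set on average was kept, giving 18193 genes.

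Genotypes were compared in limma 3.58.1 (R 4.3.3) across every gene, 2-sided, with genotype as the sole term of the linear model and moderated variances, and p-values were adjusted by Benjamini and Hochberg's method at a threshold of 0.05. The test was also run on 20 simulated sets built from the means and spreads of these data. In each, 200 changed genes were drawn from all genes rather than from keratins. They were shared evenly among changes of 1, 2, 3 and 4 log2 units. It recovered 11.5% of changes of 1 log2 unit and 46% of changes of 2. Changes of 3 and 4 were recovered at 60.6% and 71.1%, with 6.9 false calls per set. Standard errors (SE) are limma's moderated ones, and means are ± SD over n = 3 arrays. The p-values rest on the spread among arrays of 1 genotype, moderated over all genes. With 1 array per mouse, that spread holds variation between mice and measurement noise together. Litters of the 6 mice are not given, and the number of mice limits the precision.

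Keratins were named where a genotype mean reached the median of all values or the unadjusted p was among the 8 smallest. In each companion list, up to 4 genes with the highest mean and up to 3 with the smallest p could be named. Krt1, Krt5, Krt8, Krt14, Krt15, Krt17, Krt18, Krt19 and Krt20 were added after their values were seen. The members and lists were chosen with earlier results of these data known. Alternatives were quantile normalization, median centring, a filter on low values, a floor at the median, other choices of probe set, trend and robust options, the replicate number as a block, and leaving out each array.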

Additional observations from a re-analysis of the deposited data

How the results depend on the processing

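Over the 15 alternatives, 0 keratins passed in either direction in limma, with adjusted p-values no lower than 0.119 (without WT replicate 2). The count of all genes called was less steady. From 16 higher and 5 lower it went to 75 and 12 when low values were filtered, to 104 and 13 under the floor, to 102 and 35 when limma's trend and robust options were set, and to 3 lower with quantile normalization. It was 0 in each direction with the mean of all probe sets, with all probe sets one by one and with the replicate block. With 1 array left out it ranged from 0 to 29 higher and from 0 to 1 lower. Those 29 and 1 came without WT replicate 3, and leaving out any of the other 5 arrays gave 0 in each direction. Skeletal muscle genes called higher, 2 with all arrays, numbered 10 with the filter, 17 under the floor and 12 under trend and robust settings. They numbered 0 with the mean of all probe sets, with all probe sets one by one and with the replicate block. They ranged from 0 to 12 with 1 array left out. Of the 118 companion genes described above, 2 were called lower with trend and robust options, namely the contractile genes Mylk and Oxtr. The median of the hair keratins was 0.17 with the filter, which kept 2 of them, and that of the mammary luminal keratins was 0.070 with the floor. The cause of the other changes was not tested. The replicate numbers share no label beyond the number. Deviations of same-numbered arrays correlated at -0.0067, -0.0057 and -0.031, and 0 of 6 arrays correlated best with their own number. Signs of Krt222, Krt36, Krt42, Krt6a, Krt79 and Krt81 changed in 1 to 4 of 15 alternatives each. Without WT replicate 2, 8 keratins (16.7%) were higher and 4 (8.33%) lower with no overlap, against 14.6% and 11.5% of all genes on those 5 arrays. With 1 array left out, class medians ranged from 0.15 to 0.58 for simple, -0.10 to 0.29 for stratified, -0.81 to -0.13 for hair, 0.41 to 1.01 for luminal and -0.28 to 0.91 for basal keratins. The filter tested 8 keratins and the floor 18, since the others lay low on the arrays. Without detection calls, whether these lay above background is unknown.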

Other observations

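Contractile genes, listed as markers of mammary myoepithelium, also belong to vessel walls and, in part, to adipocytes, and 3 of the 8 (37.5%) had all Naa10-KO arrays below all WT arrays, against 8.14% of all genes. Oxtr, the oxytocin receptor, was at 11.56, 11.49 and 10.94 in WT and at 8.79, 9.59 and 9.90 in Naa10-KO (log2 difference -1.90, SE 0.35, limma adjusted p = 0.246). Mylk, the myosin light chain kinase of smooth muscle, was at 11.82, 12.37 and 11.74 in WT and at 10.53, 11.06 and 11.03 in Naa10-KO (log2 difference -1.11, SE 0.26, limma adjusted p = 0.368). Neither passed with all arrays and the default settings, and with trend and robust options both did, at adjusted p-values of 0.00409 for Oxtr and 0.0191 for Mylk. The third, Cnn1, lay below the median of all values on all 6 arrays. Acta2, the smooth muscle actin gene, had means of 14.93 ± 0.17 and 14.60 ± 0.40. By the probe sets kept, the basal keratins Krt5, Krt14, Krt15 and Krt17, which myoepithelial cells also carry, lay below the median of all values on all 6 arrays.

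Keratin-associated proteins of the hair shaft, which the choice of genes left out, numbered 38. Of these, 32 lay below the median of all values on all 6 arrays and 1 above it on all 6. The limma test called 0 of them, 1 had an unadjusted p under 0.05, and the median log2 difference was -0.24.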
